A study of Mus musculus with 12 samples.

Results

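Liver RNA of mice that had drunk 3-phenylpropionic acid (PPA), a small aromatic acid made by intestinal bacteria, was compared between 6 h and 0 h after acetaminophen (APAP). The comparison uses 6 of the 12 libraries of the series, chosen by their titles: PPA_6h_1, PPA_6h_2 and PPA_6h_5 against PPA_0h_2, PPA_0h_4 and PPA_0h_5. All of these mice were C57BL/6 from Taconic Bioscience, had PPA in the drinking water for 4 weeks and were fasted for 16 h overnight. The PPA_6h mice were given APAP into the abdominal cavity at 300 mg/kg and their livers were taken 6 h later, and the PPA_0h livers were taken at 0 h. Whether the 0 h mice had also been injected cannot be read from the labels, which were also without sex, age and the concentration of PPA. The remaining libraries, CTL_6h (3) and CTL_0h (3), come from mice on plain water with the same fast, dose and times. They enter here through the shared estimate of spread and in the test of whether the change differed with PPA. No livers were taken at 6 h without APAP, so the effect of APAP and that of 6 further hours cannot be told apart.

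APAP is a painkiller that injures the liver in overdose. Most of it is conjugated with glucuronic acid or sulphate, but P450 enzymes of the hepatocytes around the central vein oxidise a part to a reactive quinone imine, which glutathione binds. Once glutathione runs low the product attaches to proteins, mitochondria fail and stress kinases of the JNK type are switched on, and pericentral hepatocytes die. PPA itself is degraded in the liver and leaves the body mainly as hippuric acid, a glycine conjugate.

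RNA was read as poly(A)-selected libraries of bulk liver and is given as FPKM, a gene's sequenced fragments divided by its transcript length and by the size of the library. A row of the table was tested when at least 3 of the 12 libraries reached 1 FPKM, which left 10085 rows, without Alb, listed at 0 in every 6 h library. Changes are differences of mean log2(FPKM + 1), PPA_6h minus PPA_0h, with their standard error, tested with limma over all rows and called at a Benjamini-Hochberg adjusted p under 0.05. On this scale the change of a gene with low values is understated. A row can pass the filter of 1 FPKM through the libraries of a single time, and its call is then no support for a change of its list. "Rose" and "fell" are used of called genes. Values of single libraries follow the order PPA_6h_1, PPA_6h_2, PPA_6h_5 and PPA_0h_2, PPA_0h_4, PPA_0h_5, and means are given ± SD over 3 libraries. Since nothing in the labels ties each library to its own mouse, a p-value here covers only the spread among the libraries, which may be technical.

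From the steps in the values of long, weakly expressed genes, the PPA_6h libraries held an estimated 7850000 to 9170000 fragments and the PPA_0h libraries 3780000 to 4540000, so low values are less precise at 0 h, and depth and time cannot be told apart. Rows at 1 FPKM or more numbered 9428 to 9535 in PPA_6h and 9340 to 9413 in PPA_0h libraries. Across genes, PPA_6h libraries correlated with each other at r = 0.974 to 0.986, PPA_0h libraries at 0.986 to 0.987, and libraries of different groups at 0.935 to 0.950. In bulk RNA, fewer cells of a type and less RNA per cell cannot be told apart.

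At 6 h, many genes of stress signalling, cytosolic protein folding, the antioxidant factor NRF2 and the making of ribosomes were higher. Many genes of pericentral hepatocytes, fat oxidation, bile acid synthesis and drug metabolism were lower. Of the 10085 rows, 1497 (14.8%) rose and 1321 (13.1%) fell, 27.9% in all. In simulated data with 10085 genes, of which 200 were changed, this test of PPA_6h minus PPA_0h recovered 88% of the genes changed by a log2 value of 1 and called 5 unchanged genes. The simulated noise was independent for each gene, with the same spread in every library. It therefore cannot show how many calls arise from shifts that many genes of a library share. The median change was 0.71 among genes that rose and -0.65 among those that fell, against 0.004 over all rows. By 2-fold or more on this scale, 429 rose and 219 fell, and by 4-fold or more, 111 rose and 25 fell. Of the 2818 called rows 48 had overlapping groups. Among all 10085 rows, called or not, the groups did not overlap in 2464 with higher and 2320 with lower values at 6 h. Lack of overlap was thus common and is by itself no mark of a firm change. With every library scaled to the same FPKM sum, Alb and Apoe left out of it, 1092 rows rose and 1443 fell and the median change of all rows was -0.06, so the balance of higher to lower genes depended on the scaling.

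**Figure D1:**
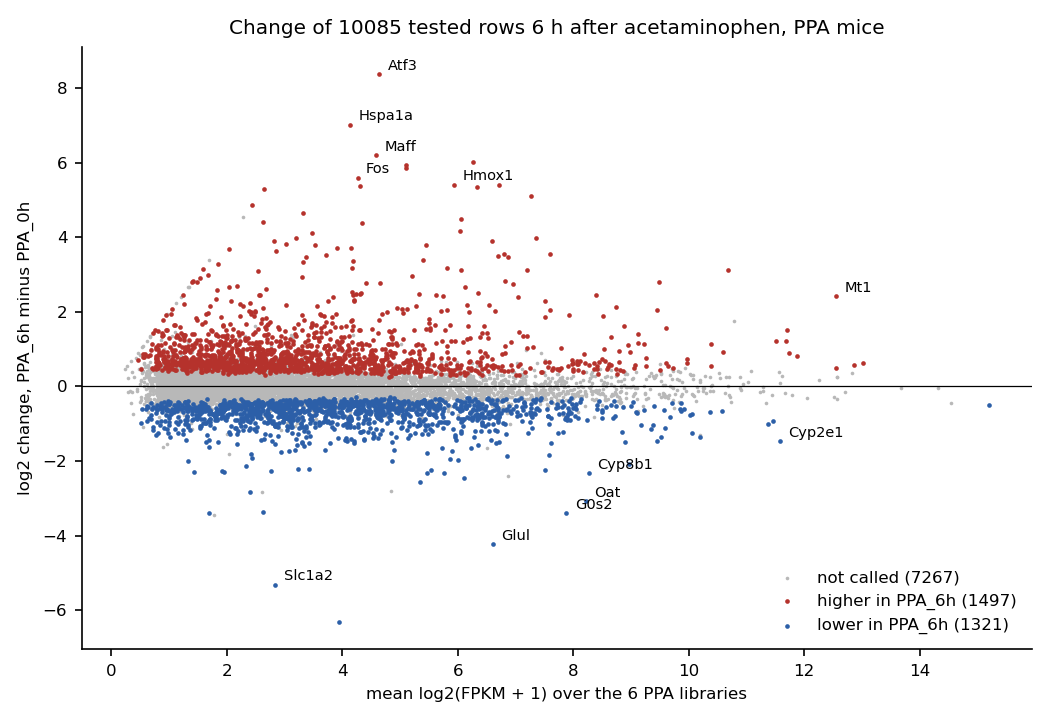
Change of each tested row (log2 of FPKM + 1, PPA_6h minus PPA_0h, vertical axis) against its mean level over the 6 PPA libraries (horizontal axis). Red points are the 1497 rows called higher and blue points the 1321 called lower, with increases reaching 8.37 for Atf3 and decreases such as -5.31 for Slc1a2 and -4.23 for Glul.

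The largest increase was that of Atf3, a transcription factor induced by many kinds of cell stress (chromosome 1, 191170296 to 191218039 in the GRCm38 assembly, from GENCODE vM21, as for the genes below). Atf3 stood at 398, 464 and 503 FPKM in PPA_6h livers, against 0.246, 0.698 and 0.229 FPKM in PPA_0h livers. It was close to absent from every 0 h library and abundant in every 6 h library (log2 change 8.37 ± 0.18, adjusted p = 4.27e-11). Maff, a small Maf protein that pairs with stress factors on DNA (chromosome 15, 79346621 to 79359076), reached 202, 211 and 204 FPKM in PPA_6h livers, against 1.43, 2.26 and 1.73 FPKM in PPA_0h livers. Its 6 h values were nearly alike and lay far above all 0 h values (log2 change 6.21 ± 0.17, adjusted p = 3.11e-10). Ifrd1, a transcriptional co-regulator, had 241, 222 and 327 FPKM in PPA_6h livers, against 2.70, 4.28 and 3.64 FPKM in PPA_0h livers, again without overlap (log2 change 5.86 ± 0.20, adjusted p = 2.13e-09). Sprr1a, a squamous cell envelope protein also induced in injured tissue, had 39.3, 53.9 and 25.9 FPKM in PPA_6h livers and was listed at 0 in all PPA_0h livers (adjusted p = 5.73e-07).

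**Figure D2:**
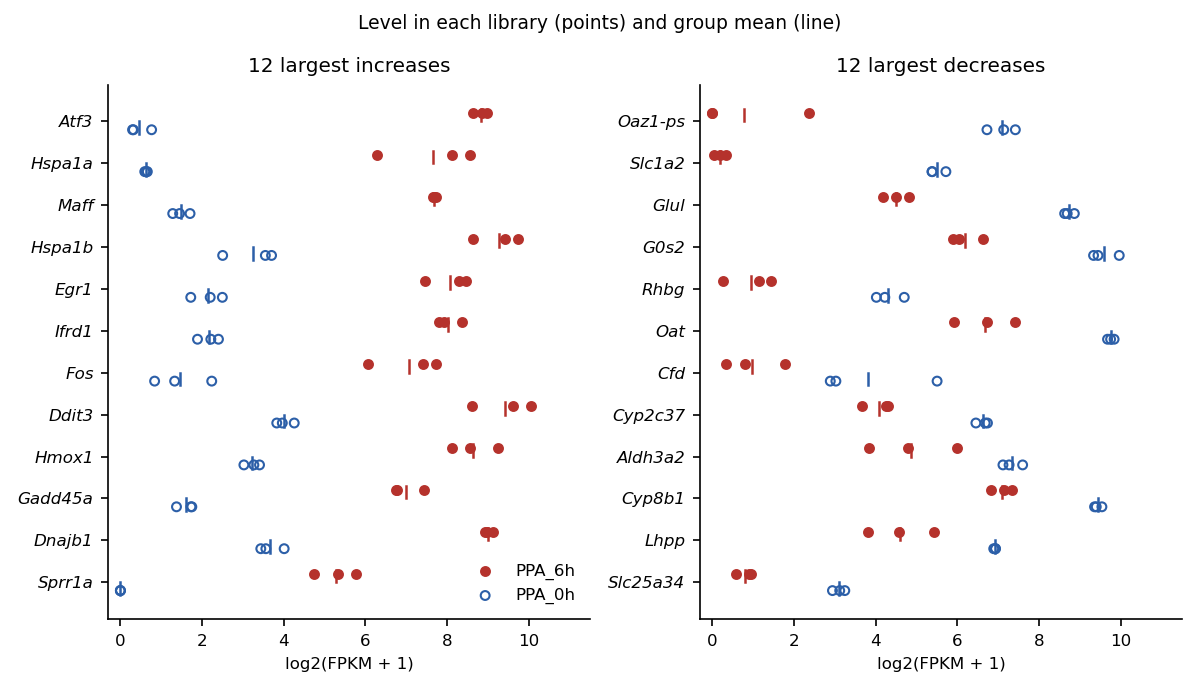
Level of the 12 genes with the largest increase (left panel) and the 12 with the largest decrease (right panel), as log2(FPKM + 1) on the horizontal axis. They were picked from called genes with no overlap and 5 FPKM or more in the higher group. Filled red points are the PPA_6h libraries, open blue points the PPA_0h libraries, and short lines the group means. The lack of overlap in the genes shown thus follows from the choice, and in Cfd 1 PPA_0h library lies far above the other PPA_0h libraries.

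Members of AP-1, the dimeric factor of Fos, Jun and related proteins that stress kinases switch on, rose together. Of 13 tested AP-1 and small Maf genes 10 rose and 1 fell, with a median change of 2.08, against 0.004 over all rows. Atf3, one of these risers, passed the filter only through its 6 h values, so its call is no support for a change of the list. Jun, a direct substrate of JNK at the protein level (chromosome 4, 95049034 to 95052222), stood at 971, 693 and 1087 FPKM in PPA_6h livers, against 31.0, 21.1 and 24.4 FPKM in PPA_0h livers. The 6 h values exceeded the 0 h values many times over in each library (log2 change 5.11 ± 0.23, adjusted p = 2.72e-08). Its partner Fos had 169, 66.0 and 209.5 FPKM in PPA_6h livers, against 3.71, 0.787 and 1.51 FPKM in PPA_0h livers. PPA_6h_2 was the lowest of the 6 h libraries, yet above every 0 h library (log2 change 5.6 ± 0.46, adjusted p = 5.65e-06).

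Immediate early genes outside AP-1, which are switched on without new protein, rose in 11 of 20 tested cases and fell in none (median change 1.35). Egr1, a zinc finger factor, had 309.6, 175 and 354 FPKM in PPA_6h livers, against 4.64, 3.59 and 2.30 FPKM in PPA_0h livers. As with Fos, PPA_6h_2 was the lowest at 6 h and the groups did not overlap (log2 change 5.93 ± 0.29, adjusted p = 5.43e-08). Klf6, a factor of wound repair, averaged 35.6 ± 6.07 FPKM in PPA_6h livers and 1.31 ± 0.0462 FPKM in PPA_0h livers (log2 change 3.97 ± 0.16, adjusted p = 1.31e-08). Csrnp1 (3.37 ± 0.21) and Ier5 (3.32 ± 0.18), a co-factor of the heat shock factor HSF1, rose as well. MAP kinase phosphatases, which take the phosphate off stress kinases, were also higher: 8 of 13 feedback genes rose and none fell (median 1.25). Dusp5 rose to 13.8 ± 1.47 FPKM in PPA_6h livers, against 0.153 ± 0.134 FPKM in PPA_0h livers (3.68 ± 0.27), followed by Dusp8 (2.22 ± 0.23), Dusp4 (2.15 ± 0.28) and Dusp10 (1.78 ± 0.15). These Dusp genes were below 1 FPKM in every 0 h library and passed the filter only through their 6 h values. Their calls are therefore no support for a change of the list.

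The integrated stress response slows translation through eIF2-alpha and favours the factor ATF4, whose targets supply amino acids and, if stress lasts, promote cell death. Of 18 tested genes of this response 12 rose and 1 fell (median 1.69). Ddit3, which encodes the death-promoting factor CHOP, had 775, 391 and 1064 FPKM in PPA_6h livers, against 18.1, 14.6 and 13.2 FPKM in PPA_0h livers. All 6 h libraries were high, PPA_6h_2 the least so (log2 change 5.41 ± 0.31, adjusted p = 2.43e-07). Chac1, an enzyme that breaks down glutathione, had 48.6, 28.0 and 53.6 FPKM in PPA_6h livers, against 2.69, 1.61 and 2.06 FPKM in PPA_0h livers, with PPA_6h_2 again lowest at 6 h and no overlap (log2 change 3.79 ± 0.50, adjusted p = 0.000231). Asns, asparagine synthetase, had 18.4, 8.66 and 33.5 FPKM in PPA_6h livers, against 4.94, 4.02 and 4.47 FPKM in PPA_0h livers (log2 change 1.77 ± 0.39, adjusted p = 0.00588). The pseudokinase Trib1 (2.96 ± 0.13), the phosphatase subunit Ppp1r15a that restores translation (2.30 ± 0.21) and the serine-making enzyme Psph (1.81 ± 0.18) also rose. Shmt2, the mitochondrial serine hydroxymethyltransferase, fell (-0.62 ± 0.10), and without PPA_0h_4 the list had 2 decreases. Amino acid transporters split, with 3 of 14 higher and 5 lower, or 3 lower without PPA_0h_2 or PPA_6h_5. The neutral carriers Slc38a2 (0.82 ± 0.18) and Slc7a5 (0.99 ± 0.21) and the partner of Slc7a5, Slc3a2 (0.95 ± 0.21), rose, whereas Slc38a4 fell (-0.71 ± 0.14).

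The promoters of Chac1 and Asns are shown because they are the risers of the list whose 250 bases before the start hold the letters TGATGNAA, an ATF4 element, on either strand. The capitals mark the match, whose leftmost base lies at -193 in Chac1 and -23 in Asns, counted back from the start. In Asns the match overlaps the letters GAANNTTC of the heat shock element used below, and no other match in capitals overlaps another of the motifs searched. Sequences are from RefSeq on GRCm38.p6, at chr2:119350992-119351241 (plus strand) and chr6:7693210-7693459 (minus strand).
Chac1: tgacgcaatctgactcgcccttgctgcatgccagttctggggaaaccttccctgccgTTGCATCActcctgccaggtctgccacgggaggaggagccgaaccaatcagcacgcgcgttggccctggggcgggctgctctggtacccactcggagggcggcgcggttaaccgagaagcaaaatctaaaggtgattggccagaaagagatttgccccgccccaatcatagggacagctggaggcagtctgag
Asns: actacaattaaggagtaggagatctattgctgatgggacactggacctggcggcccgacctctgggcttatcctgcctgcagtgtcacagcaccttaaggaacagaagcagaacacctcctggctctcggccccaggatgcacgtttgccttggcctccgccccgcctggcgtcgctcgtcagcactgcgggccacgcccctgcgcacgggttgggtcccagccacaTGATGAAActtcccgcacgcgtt
The 250-base window was at hand for 11 of the 12 risers of this list, and 2 of these 11 (18.2%) held the element, against 185 of 7738 tested genes with a promoter entry (2.4%). It was also found in 2 of 6 members that did not rise. The AP-1 site TGANTCA was found in 0 of 9 AP-1 list risers with an entry, against 439 of 7738 tested genes (5.7%), so none of those promoters is shown.

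Cytosolic chaperones, which keep damaged proteins soluble and refold them, were higher at 6 h. Of 26 heat shock genes 20 rose and none fell, with a median change of 1.51. Hspa1a and Hspa1b encode the inducible HSP70 and are near-identical neighbours, so the split of reads between them is uncertain. Hspa1a had 275, 375 and 77.2 FPKM in PPA_6h livers, against 0.512, 0.579 and 0.554 FPKM in PPA_0h livers. PPA_6h_5 was much lower than the other 6 h libraries, but far above the even 0 h values (log2 change 7.02 ± 0.63, adjusted p = 1.22e-05). Hspa1a was below 1 FPKM in every 0 h library and passed the filter only through its 6 h values. Its call is therefore no support for a change of the list. Hspa1b had 685, 846 and 395 FPKM in PPA_6h livers, against 4.67, 12 and 10.7 FPKM in PPA_0h livers, with PPA_6h_5 again the lowest at 6 h (log2 change 6.01 ± 0.47, adjusted p = 3.58e-06). Dnajb1, the HSP40 that hands clients to HSP70 (chromosome 8, 83608193 to 83612653), had 502, 481 and 558 FPKM in PPA_6h livers, against 10.8, 15.1 and 9.83 FPKM in PPA_0h livers. Unlike HSP70 it was about equally high in the 3 PPA_6h libraries (log2 change 5.34 ± 0.17, adjusted p = 9.6e-10). The HSP70 co-factor Bag3 (4.17 ± 0.29), the stress form of HSP90, Hsp90aa1 (3.50 ± 0.22), and the small heat shock protein Hspb8 (2.06 ± 0.13) rose too. Hspb1, another small heat shock protein, varied most, with 640.4, 1537 and 291 FPKM in PPA_6h livers, against 48.9, 63.9 and 53.5 FPKM in PPA_0h livers. Its 6 h libraries ranked as they did for Hspa1a, PPA_6h_2 highest and PPA_6h_5 lowest, all above the 0 h group (log2 change 3.56 ± 0.48, adjusted p = 0.000262).

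The promoters of Hspa1a and Hspa1b are shown because both genes rose steeply and both hold a heat shock element, here the letters GAANNTTC on either strand. The match, in capitals, starts at -104 in each. The windows, from RefSeq on GRCm38.p6, are the 250 bases before the start at chr17:34972157-34972406 (minus strand) and chr17:34959239-34959488 (minus strand).
Hspa1a: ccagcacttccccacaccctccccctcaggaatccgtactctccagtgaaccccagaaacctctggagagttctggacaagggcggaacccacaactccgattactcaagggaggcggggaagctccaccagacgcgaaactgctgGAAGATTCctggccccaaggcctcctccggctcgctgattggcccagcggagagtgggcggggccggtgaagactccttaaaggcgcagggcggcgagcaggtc
Hspa1b: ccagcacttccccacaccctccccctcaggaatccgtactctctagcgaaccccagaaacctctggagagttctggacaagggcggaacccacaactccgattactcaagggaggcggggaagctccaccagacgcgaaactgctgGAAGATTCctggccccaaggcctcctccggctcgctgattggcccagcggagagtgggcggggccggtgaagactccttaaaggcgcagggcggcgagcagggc
Of 17 heat shock list risers with a promoter entry 7 held the element (41.2%), among them Hspb1 besides the pair shown. Dnajb1, Bag3 and Hspb8 had no match in this window. The near-identical windows of Hspa1a and Hspa1b count separately among these 7, although they are not independent. Among all tested genes with an entry, 492 of 7738 (6.4%) held it, and among all risers 83 of 1161 (7.1%). The list's 6 members that did not rise had an entry for 4, of which 1 held the element.

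Chaperones of the endoplasmic reticulum moved less. Of 22 genes of the unfolded protein response 7 rose and none fell (median 0.36). Hspa5, the main chaperone BiP, had 760.1, 808 and 910.1 FPKM in PPA_6h livers, against 297, 215 and 291 FPKM in PPA_0h livers (log2 change 1.63 ± 0.18, adjusted p = 7.39e-05). Its co-chaperone Dnajb9 (1.82 ± 0.23) and the sensors Ern1 (1.25 ± 0.27) and Atf6 (0.62 ± 0.12) rose as well. Proteasome subunits stayed near the background, with 4 of 31 called higher (12.9%) and a median change of 0.04. Psmd11 had the firmest of these increases (0.64 ± 0.12), and without any of PPA_0h_2, PPA_0h_4, PPA_0h_5, PPA_6h_2 or PPA_6h_5 the count was 2.

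The factor NRF2, held down by KEAP1 until electrophiles modify that protein, drives genes of the thioredoxin, NADPH and quinone systems. Of 27 such genes 15 rose and 1 fell (median 0.61). Hmox1, the haem-degrading oxygenase (chromosome 8, 75093621 to 75100589), had 376, 277 and 609.8 FPKM in PPA_6h livers, against 9.60, 7.13 and 8.63 FPKM in PPA_0h livers. PPA_6h_5 was highest and PPA_6h_2 lowest at 6 h, and all 0 h values were low (log2 change 5.41 ± 0.27, adjusted p = 5.77e-08). Srxn1, sulfiredoxin, which reactivates oxidised peroxiredoxins, had 463, 369 and 306 FPKM in PPA_6h livers, against 19.8, 26.2 and 26.4 FPKM in PPA_0h livers, with no overlap (log2 change 3.91 ± 0.17, adjusted p = 2.1e-08). Txnrd1, thioredoxin reductase, averaged 152 ± 20.3 FPKM in PPA_6h livers and 32.4 ± 2.60 FPKM in PPA_0h livers (log2 change 2.19 ± 0.14, adjusted p = 5.73e-07). Sqstm1, the autophagy receptor p62 that can sequester KEAP1, averaged 1429.8 ± 162 FPKM in PPA_6h livers and 344 ± 24.7 FPKM in PPA_0h livers (log2 change 2.05 ± 0.12, adjusted p = 2.19e-07). Ugdh, which makes the UDP-glucuronic acid used to conjugate APAP, rose 2.77-fold (log2 change 1.44 ± 0.23, adjusted p = 0.000847). Nfe2l2, the gene of NRF2 itself, had 15.2, 17.5 and 20.7 FPKM in PPA_6h livers, against 10.7, 13.2 and 10.9 FPKM in PPA_0h livers (log2 change 0.57 ± 0.16, adjusted p = 0.0203), a call lost without PPA_0h_2, PPA_0h_5 or PPA_6h_5. This call was also lost with libraries scaled to the same sum. The mRNA of Keap1 was 33.7 ± 0.3 FPKM in PPA_6h and 32.1 ± 3.00 FPKM in PPA_0h livers and was not called (log2 change 0.07 ± 0.11, adjusted p = 0.664). The member that fell was Abcc3, an export pump of the blood side of hepatocytes (-0.95 ± 0.18).

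The promoters of Txnrd1 and Ugdh are shown because they are the list's steepest risers with an antioxidant response element, here TGACNNNGC on either strand, in capitals. It starts at -92 in Txnrd1 and at -132 and -94 in Ugdh. The windows are from RefSeq on GRCm38.p6, at chr10:82858956-82859205 (plus strand) and chr5:65435843-65436092 (minus strand).
Txnrd1: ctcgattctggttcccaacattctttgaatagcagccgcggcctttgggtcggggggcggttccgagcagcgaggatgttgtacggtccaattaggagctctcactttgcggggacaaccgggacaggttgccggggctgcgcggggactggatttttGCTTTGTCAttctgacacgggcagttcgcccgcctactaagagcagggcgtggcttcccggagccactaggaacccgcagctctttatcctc
Ugdh: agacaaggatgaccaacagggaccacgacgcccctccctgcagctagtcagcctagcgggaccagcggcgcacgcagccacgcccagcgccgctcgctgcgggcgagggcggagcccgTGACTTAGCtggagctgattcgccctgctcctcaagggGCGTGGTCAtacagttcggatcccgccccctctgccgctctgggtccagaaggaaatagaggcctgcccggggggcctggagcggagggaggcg
The element was found in 7 of 13 risers of the list with an entry (53.8%) and in 0 of 10 members that did not rise, against 1114 of 7738 tested genes (14.4%). No match in the 250 bases was found for Srxn1 and Sqstm1, and Hmox1 had no entry.

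Glutathione is made by glutamate-cysteine ligase, of the subunits Gclc and Gclm, and by Gss. Gclc, the catalytic subunit (chromosome 9, 77754535 to 77794485), had 419.5, 372 and 362 FPKM in PPA_6h livers, against 33.9, 33.7 and 27.5 FPKM in PPA_0h livers. All 6 h values were about alike and an order of magnitude above all 0 h values (log2 change 3.56 ± 0.24, adjusted p = 9.85e-07). Gclm, the modifier subunit, had 98.6, 125 and 77.8 FPKM in PPA_6h livers, against 58.1, 48.0 and 49.9 FPKM in PPA_0h livers, a smaller rise without overlap (log2 change 0.91 ± 0.18, adjusted p = 0.00337). Gss averaged 80.7 ± 4.05 FPKM in PPA_6h livers and 37.6 ± 0.679 FPKM in PPA_0h livers (log2 change 1.08 ± 0.10, adjusted p = 1.62e-05). Over the 16 tested genes of glutathione synthesis and recycling 5 rose and 2 fell, or 1 without PPA_0h_4, PPA_0h_5 or PPA_6h_1, with a median of -0.03. Anpep, a peptidase that cleaves the glutathione breakdown product, fell (-0.69 ± 0.15). Among 21 glutathione S-transferases 2 rose and 7 fell (median -0.12). Without PPA_6h_5 the counts were 6 and 5, the decreases were 3 without PPA_0h_5, and 1 rose without PPA_0h_2 or PPA_6h_1. Gsta1 rose to 39.2, 13.7 and 33.1 FPKM in PPA_6h livers, against 1.87, 1.06 and 0 FPKM in PPA_0h livers (3.91 ± 0.46), with reads possibly shared with its close copies. Gstm2 (-1.13 ± 0.20), Gstt2 (-0.93 ± 0.18) and Gstm6 (-0.63 ± 0.13) fell. Gstp1, an abundant transferase of the pi class, had 4246, 3281 and 2992 FPKM in PPA_6h livers and 2927, 2528 and 2555 FPKM in PPA_0h livers, and its difference was not called (log2 change 0.38 ± 0.15, adjusted p = 0.0795).

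Metallothioneins, small proteins that bind zinc and copper, were among the most abundant mRNAs that rose. Mt1 had 16209.5, 8626 and 19418 FPKM in PPA_6h livers, against 2759.8, 2361 and 2649 FPKM in PPA_0h livers. PPA_6h_2 was the lowest of the 6 h libraries and still well above all 0 h libraries (log2 change 2.43 ± 0.35, adjusted p = 0.000384). Mt2 ordered the libraries in the same way, with 5689, 2323 and 8519.9 FPKM in PPA_6h livers, against 579, 435 and 660.1 FPKM in PPA_0h livers (log2 change 3.13 ± 0.46, adjusted p = 0.000508). With the zinc importer Slc39a14 (1.32 ± 0.17) and the exporter Slc30a5 (0.91 ± 0.21), 6 of 10 genes of zinc handling rose and none fell. In haem and iron handling 9 of 23 genes rose and 5 fell, and without PPA_0h_5 the counts were 5 and 3, and without PPA_6h_1 3 fell. The iron store Fth1 (0.90 ± 0.15), the iron hormone Hamp (1.51 ± 0.33) and the haem carrier Hpx (0.81 ± 0.14) were higher. Cpox, a late enzyme of haem synthesis (-1.19 ± 0.20), and Hfe2, a co-receptor that raises Hamp (-0.95 ± 0.12), were lower.

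Genes for making ribosomes, which sets the capacity for protein synthesis, were higher at 6 h. Of 42 genes of ribosome biogenesis 35 rose and none fell, with a median of 0.63. Leaving out any 1 PPA library gave 24 to 35 increases, fewest without PPA_6h_5. Nop58, a core protein of the particles that methylate ribosomal RNA, had 34.0, 30.8 and 32.6 FPKM in PPA_6h livers, against 8.38, 9.35 and 8.25 FPKM in PPA_0h livers. Both groups were tight and apart (log2 change 1.79 ± 0.16, adjusted p = 1.41e-05). Its partner Nop56 (1.64 ± 0.14), the helicase Ddx21 (1.33 ± 0.15) and Mak16 (1.21 ± 0.14), a factor of the large subunit, followed. Cytosolic ribosomal proteins rose in 25 of 44 cases and fell in none (median 0.42), led by Rpl3 (1.04 ± 0.12), Rps7 (0.61 ± 0.12), Rps6 (0.59 ± 0.10) and Rpl5 (0.56 ± 0.11). Their number depended on single libraries, with 8 without PPA_0h_2, 12 without PPA_0h_5, 10 without PPA_6h_1 and 11 without PPA_6h_5, and many have near-identical pseudogenes that could take reads.

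Of 20 cytosolic tRNA synthetases, which load amino acids on tRNA and are in part ATF4 targets, 13 rose and none fell (median 0.57). Cars, for cysteine, averaged 19.7 ± 1.48 FPKM in PPA_6h livers and 5.64 ± 0.956 FPKM in PPA_0h livers (log2 change 1.65 ± 0.16, adjusted p = 1.89e-05). Sars (1.14 ± 0.12), Yars (1.04 ± 0.14) and Nars (1.01 ± 0.13), for serine, tyrosine and asparagine, rose about as much as each other. Translation factors rose in 15 of 29 cases, or 9 without PPA_0h_2 and 9 with libraries scaled to the same sum. The cap-binding protein Eif4e (1.43 ± 0.18), its helicase partner Eif4a1 (1.09 ± 0.13), and Eif5 (1.23 ± 0.13) and Eif6 (0.86 ± 0.13) were among them. Splicing and RNA-binding factors rose in 18 of 37 cases and fell in 1, or in 0 without PPA_0h_2, PPA_0h_4, PPA_6h_1 or PPA_6h_2 (median 0.43). Hnrnph1 averaged 50 ± 9.94 FPKM in PPA_6h livers and 12.1 ± 1.49 FPKM in PPA_0h livers (log2 change 1.95 ± 0.15, adjusted p = 3.88e-06), and Ddx5 (1.64 ± 0.17), Srsf2 (1.28 ± 0.14) and Ptbp1 (1.15 ± 0.13) rose as well.

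Polyamine genes, which serve growing cells, rose in 6 of 8 cases. Sat1, which acetylates spermidine for export, had 168, 131 and 328 FPKM in PPA_6h livers, against 33.9, 34.6 and 31.4 FPKM in PPA_0h livers. PPA_6h_5 was highest, and the 0 h group was even (log2 change 2.5 ± 0.31, adjusted p = 0.000161). Odc1, the first enzyme of the pathway, rose less (0.76 ± 0.13), as did Srm (0.75 ± 0.13) and Smox (0.67 ± 0.15). Long noncoding RNAs of the nucleus rose in 8 of 13 cases, or 5 without PPA_0h_4 or PPA_6h_5. The snoRNA hosts Snhg1 (1.90 ± 0.22) and Snhg5 (1.22 ± 0.27) and the transcripts Gm11974 (1.71 ± 0.21) and Mir22hg (0.88 ± 0.17) were among them.

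**Figure D3:**
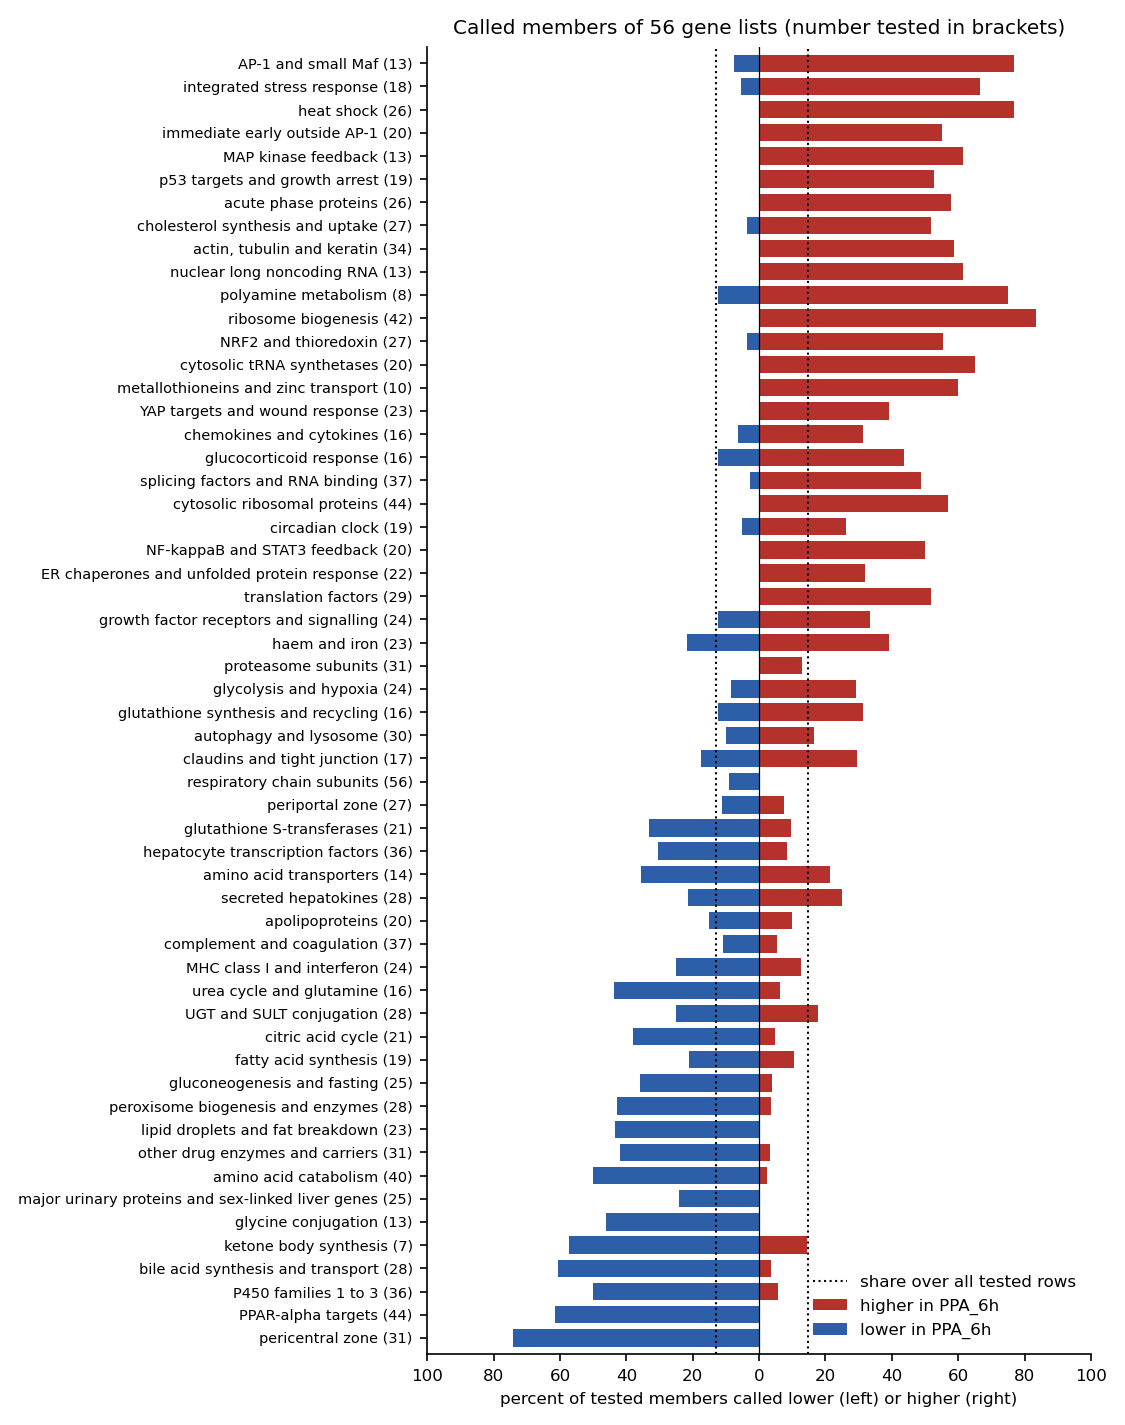
Percent of tested members called lower (blue, to the left) and higher (red, to the right) at 6 h in each of the 56 gene lists, with the number tested in brackets. Lists are ordered by their median change, and dotted lines mark the share over all tested rows, 14.8% higher and 13.1% lower. AP-1, integrated stress response and heat shock genes stand at the top and pericentral genes and PPAR-alpha targets at the bottom.

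Genes of growth arrest and repair were also higher. Of 19 p53 targets and related genes 10 rose and none fell (median 1.14). Gadd45a, a growth arrest protein of damaged cells, had 108, 106 and 172 FPKM in PPA_6h livers, against 1.59, 2.36 and 2.31 FPKM in PPA_0h livers, with PPA_6h_5 highest (log2 change 5.37 ± 0.25, adjusted p = 3.3e-08). Phlda1 (3.12 ± 0.15), the survival protein Mcl1 (1.27 ± 0.16) and the kinase Plk2 (1.38 ± 0.15) rose too. Plk3, a stress kinase, had 120.5, 54.1 and 287 FPKM in PPA_6h livers, against 19.5, 15.8 and 34.9 FPKM in PPA_0h livers, one of the widest spreads at 6 h (log2 change 2.43 ± 0.46, adjusted p = 0.00218). Targets of YAP and genes of wound healing rose in 9 of 23 cases and fell in none. Tnfrsf12a, the receptor of the cytokine TWEAK (chromosome 17, 23675445 to 23677468), had 311, 202 and 498 FPKM in PPA_6h livers, against 13.4, 15.8 and 10.4 FPKM in PPA_0h livers. All 6 h libraries were an order of magnitude or more above the 0 h group (log2 change 4.5 ± 0.28, adjusted p = 5.51e-07). The YAP target Cyr61 (2.79 ± 0.27), the progenitor factor Sox9 (1.84 ± 0.26) and Vegfa (1.66 ± 0.28) followed. Areg, an EGF receptor ligand, had 2.87, 3.96 and 1.74 FPKM in PPA_6h livers and was listed at 0 in all PPA_0h livers. It passed the filter only through its 6 h values.

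The cytoskeleton list rose in 20 of 34 members and fell in none (median 0.80). Its firmest members were tubulins. Tubb6 had 64.9, 38.7 and 64.6 FPKM in PPA_6h livers, against 6.63, 6.87 and 7.73 FPKM in PPA_0h livers, PPA_6h_2 the lowest at 6 h (log2 change 2.79 ± 0.18, adjusted p = 6.98e-07). Tubb2a (2.03 ± 0.21), Tuba1c (1.96 ± 0.17) and Tuba1b (1.49 ± 0.19) rose as well, with reads possibly shared among alpha tubulin copies. Junction genes split, with 5 of 17 higher, or 3 without PPA_6h_5, and 3 lower. Cdh1, E-cadherin (1.53 ± 0.23), and Gjb2, connexin 26 (0.89 ± 0.15), rose, whereas Cldn3 (-0.75 ± 0.18) and Tjp3 (-0.89 ± 0.13) fell. Among growth factor and BMP response genes 8 of 24 rose. Id3, a BMP-induced inhibitor of differentiation factors, had 330.4, 273 and 367 FPKM in PPA_6h livers, against 29.0, 68.2 and 52.6 FPKM in PPA_0h livers (log2 change 2.74 ± 0.25, adjusted p = 1.58e-05), and Id1 rose too (2.1 ± 0.30). Erbb3, the neuregulin receptor of hepatocytes, averaged 4.08 ± 0.962 FPKM in PPA_6h livers and 15.5 ± 1.15 FPKM in PPA_0h livers (log2 change -1.71 ± 0.33, adjusted p = 0.00279).

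Acute phase proteins, secreted by hepatocytes under IL-6 and IL-1, rose in 15 of 26 cases and fell in none (median 0.87). Apcs, serum amyloid P, had 273, 300.5 and 331 FPKM in PPA_6h livers, against 38.7, 36.0 and 51.4 FPKM in PPA_0h livers, both groups tight and apart (log2 change 2.83 ± 0.19, adjusted p = 6.99e-07). The fibrinogen chains Fga (1.15 ± 0.25), Fgb (1.21 ± 0.14) and Fgg (1.22 ± 0.14) rose alike from high levels, and Serpina3m rose more (1.92 ± 0.15), within a family of close copies. Lcn2, lipocalin 2, which binds bacterial siderophores, had 542, 233 and 459.5 FPKM in PPA_6h livers, against 21.7, 24.7 and 72.2 FPKM in PPA_0h livers (log2 change 3.47 ± 0.45, adjusted p = 0.0002). Of 37 complement and coagulation genes 2 were higher and 4 lower, below the shares over all rows. Leaving out any 1 PPA library left 0 to 2 higher and 0 to 3 lower.

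Few inflammatory messengers passed the filter on low values, 16 of 26, and 5 of these rose. Cxcl1, a neutrophil attractant, had 31.9, 28.1 and 103 FPKM in PPA_6h livers, against 1.39, 0.631 and 3.88 FPKM in PPA_0h livers. PPA_6h_5 stood well above the other 6 h libraries, which in turn exceeded all 0 h libraries (log2 change 4.12 ± 0.47, adjusted p = 8.32e-05). Cxcl2, which acts on the same receptor, had 11.1, 5.02 and 8.70 FPKM in PPA_6h livers and was listed at 0 in all PPA_0h livers. Like Areg, it passed the filter only through its 6 h values. Cxcl10, an interferon-induced attractant of T cells, also had its highest value in PPA_6h_5, with 9.51, 5.94 and 53.1 FPKM in PPA_6h livers, against 1.41, 2.40 and 1.09 FPKM in PPA_0h livers (log2 change 2.62 ± 0.57, adjusted p = 0.00522). Cxcl12, which holds leukocytes in place, fell (-0.87 ± 0.20). Feedback genes of NF-kappaB and STAT3 rose in 10 of 20 cases and fell in none. Nfkbiz (3.64 ± 0.40), Pim1 (2.32 ± 0.29), Socs3, the brake on IL-6 signalling (2.29 ± 0.24), and Stat3 itself (1.28 ± 0.17) were called. Of 24 genes of MHC class I and interferon 3 were higher, near the share over all rows, and 6 lower. The decreases were 3 without PPA_0h_2, PPA_0h_5, PPA_6h_1 or PPA_6h_2, and the increases 0 without PPA_0h_2 or PPA_0h_5 and 1 without PPA_0h_4, PPA_6h_2 or PPA_6h_5. The peptide transporter Tap1 (-0.76 ± 0.16) and the immunoproteasome subunit Psmb9 (-1.05 ± 0.23) fell.

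Among the steepest decreases were genes of the pericentral zone, the hepatocytes around the central vein that Wnt signals specify. Of 31 such genes 23 fell and none rose, with a median of -1.13. Slc1a2, a glutamate transporter (chromosome 2, 102658659 to 102790784), had 0.256, 0.141 and 0.0227 FPKM in PPA_6h livers, against 51.7, 40.6 and 40.8 FPKM in PPA_0h livers. It was all but lost from every 6 h library (log2 change -5.31 ± 0.21, adjusted p = 8.91e-09). Glul, glutamine synthetase, which clears the last ammonia before blood leaves the lobule (chromosome 1, 153899944 to 153909723), had 27.3, 17.1 and 21.5 FPKM in PPA_6h livers, against 465, 394 and 412 FPKM in PPA_0h livers. The groups were each tight and more than an order of magnitude apart (log2 change -4.23 ± 0.20, adjusted p = 3.3e-08). Rhbg, an ammonia channel of the same cells, had 1.71, 1.21 and 0.208 FPKM in PPA_6h livers, against 25.0, 15.2 and 17.7 FPKM in PPA_0h livers (log2 change -3.36 ± 0.35, adjusted p = 3.82e-05). Oat, ornithine aminotransferase, had 59.2, 105 and 169.9 FPKM in PPA_6h livers, against 818, 861 and 914 FPKM in PPA_0h livers. PPA_6h_5 kept the most of it, still far below all 0 h libraries (log2 change -3.07 ± 0.28, adjusted p = 1.58e-05). Lhpp, a phosphatase, showed the same order of 6 h libraries, with 13.1, 22.7 and 42.0 FPKM in PPA_6h livers, against 118, 121 and 121 FPKM in PPA_0h livers (log2 change -2.31 ± 0.28, adjusted p = 0.000139). Slc13a3, a dicarboxylate carrier, fell as well (-2.28 ± 0.19). Outside the list, Slc25a34, a mitochondrial carrier, was among the 12 largest decreases with no overlap and 5 FPKM or more in the higher group. It had 0.864, 0.507 and 0.918 FPKM in PPA_6h livers, against 6.69, 8.48 and 7.70 FPKM in PPA_0h livers (log2 change -2.29 ± 0.15, adjusted p = 8.01e-07). Oaz1-ps, a pseudogene whose reads cannot be told from those of Oaz1, had 4.16, 0 and 0 FPKM in PPA_6h livers, against 139.6, 105 and 170.3 FPKM in PPA_0h livers, and its zeros may not be levels.

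Periportal genes, of the hepatocytes at the other end of the lobule, stayed near the background, with 2 of 27 higher, 3 lower and a median of -0.11. Those that fell included the gluconeogenic enzymes Pck1, which averaged 736 ± 72.8 FPKM in PPA_6h livers and 1866 ± 144 FPKM in PPA_0h livers (log2 change -1.34 ± 0.13, adjusted p = 1.86e-05), and G6pc, with 62.4 ± 20.6 FPKM in PPA_6h livers and 224 ± 53.9 FPKM in PPA_0h livers (log2 change -1.86 ± 0.24, adjusted p = 0.000195). Among 16 genes of the urea cycle and glutamine 7 fell, among them Slc25a13, the aspartate carrier of mitochondria (-0.76 ± 0.14), and 1 rose. In amino acid breakdown 20 of 40 genes fell, or 14 to 18 without any 1 PPA library, and 1 rose (median -0.47). The single increase in each of these lists was lost without PPA_0h_5 or PPA_6h_2. Bhmt, which remethylates homocysteine, averaged 2042 ± 283 FPKM in PPA_6h livers and 3893 ± 389.8 FPKM in PPA_0h livers (log2 change -0.94 ± 0.15, adjusted p = 0.00101). Hgd, which takes part in the breakdown of tyrosine, fell about as much (-0.85 ± 0.14).

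The P450 enzymes that oxidise APAP were lower at 6 h. Cyp2e1, the main one of them and a pericentral gene (chromosome 7, 140763739 to 140774987), had 1638, 2080.3 and 1850.5 FPKM in PPA_6h livers, against 5197, 5265 and 4757 FPKM in PPA_0h livers. Each group was even and they lay well apart (log2 change -1.46 ± 0.19, adjusted p = 0.000226). Cyp1a2 had 140.4, 131 and 80.8 FPKM in PPA_6h livers, against 389.6, 289.8 and 314 FPKM in PPA_0h livers, lowest in PPA_6h_5 (log2 change -1.52 ± 0.21, adjusted p = 0.000319). Cyp3a11 had 1011, 883 and 378 FPKM in PPA_6h livers, against 1773, 1436 and 1741 FPKM in PPA_0h livers. Its decrease was largest in PPA_6h_5 too, and the groups did not overlap (log2 change -1.24 ± 0.30, adjusted p = 0.0103). In all, 18 of 36 genes of P450 families 1 to 3 fell and 2 rose (median -0.60), and the increases were 0 without PPA_0h_4 and 1 without PPA_0h_5 or PPA_6h_1. Cyp2c37 (-2.55 ± 0.17) and Cyp2c50 (-1.49 ± 0.22), members of a family of close copies, fell, as did Cyp2d9 (-0.68 ± 0.14).

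Conjugation genes split, with 5 of 28 UGT and SULT genes higher, or 3 without PPA_0h_5 or PPA_6h_2, and 7 lower. The increases were near the share over all rows. Ugt1a6a, which glucuronidates APAP, had 8.13, 9.30 and 7.87 FPKM in PPA_6h livers and 12, 12.3 and 10.9 FPKM in PPA_0h livers, and Sult1a1, which sulphates it, had 190.1, 205 and 162 FPKM in PPA_6h livers and 216, 226 and 221 FPKM in PPA_0h livers. Neither was called (adjusted p = 0.226 for Ugt1a6a, which shares all but its first exon with other Ugt1a transcripts, and adjusted p = 0.232 for Sult1a1). Papss2, which makes the sulphate donor, fell (-1.47 ± 0.21), and so did Ugt2b1 (-0.83 ± 0.14) and Ugt3a2 (-0.82 ± 0.10). Ugp2, which makes UDP-glucose (0.74 ± 0.17), and Sult1e1, an oestrogen sulphotransferase (1.42 ± 0.30), rose. Of 31 other drug enzymes and carriers 13 fell. The carboxylesterase Ces2c (-2.27 ± 0.20), the flavin monooxygenase Fmo1 (-1.04 ± 0.12) and the drug sensor Nr1i3, CAR (-0.90 ± 0.14), were among these.

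Glycine conjugation is the route by which PPA leaves the body, and its list also holds genes that make or break down glycine. In it 6 of 13 genes fell and none rose (median -0.49). Leaving out any 1 PPA library gave 4 to 8 decreases. Gm4952, a glycine N-acyltransferase-like gene, had 11.3, 22.8 and 32.7 FPKM in PPA_6h livers, against 90.3, 106 and 104 FPKM in PPA_0h livers. PPA_6h_1 was lowest and PPA_6h_5 highest at 6 h, without overlap (log2 change -2.24 ± 0.27, adjusted p = 0.000119). Shmt1 (-0.95 ± 0.16), which makes glycine from serine, and Amt (-1.01 ± 0.25), a part of the glycine cleavage system, fell.

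PPAR-alpha is the nuclear receptor that turns on fat oxidation in the fasted liver. Of 44 of its targets 27 fell and none rose, with a median of -0.86. The mRNA of the receptor had 8.31, 13.2 and 9.24 FPKM in PPA_6h livers, against 28.3, 30.8 and 29.6 FPKM in PPA_0h livers (log2 change -1.46 ± 0.18, adjusted p = 0.000145). Its targets did not move evenly over the libraries. The mean log2(FPKM + 1) of the list was 5.86 in PPA_6h_1, 6.00 in PPA_6h_2 and 7.10 in PPA_6h_5, against 7.09, 7.41 and 7.22 in the PPA_0h libraries. PPA_6h_5 thus lay at the level of the 0 h libraries and the other 6 h libraries below it. Without PPA_6h_5 the list had 38 called decreases, and without PPA_0h_4 it had 17.

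**Figure D4:**
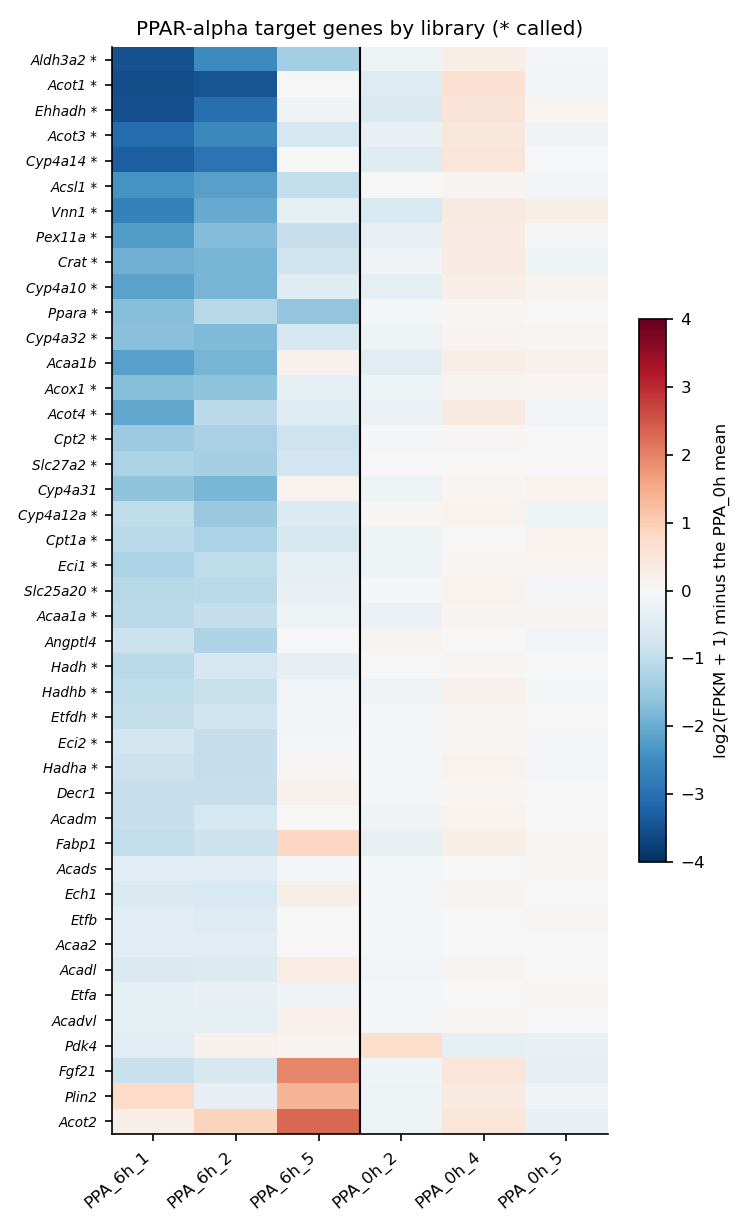
Level of 43 of the 44 tested PPAR-alpha target genes (rows, from the largest decrease at the top) in the 3 PPA_6h libraries (left of the line) and the 3 PPA_0h libraries (right), as log2(FPKM + 1) minus the gene's PPA_0h mean, with called genes marked by an asterisk. Columns PPA_6h_1 and PPA_6h_2 are blue over most genes, while column PPA_6h_5 is pale for many of them.

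Genes of fat oxidation show this in detail. Ehhadh, the bifunctional enzyme of peroxisomal oxidation, had 33.1, 47.1 and 357 FPKM in PPA_6h livers, against 262, 559 and 410.1 FPKM in PPA_0h livers. PPA_6h_5 lay inside the range of the 0 h libraries and the other two far below it (log2 change -2.23 ± 0.66, adjusted p = 0.0256). The call of Ehhadh was lost without PPA_6h_1, PPA_6h_2, PPA_0h_4 or PPA_0h_5. It was also lost in a fit of the 6 PPA libraries alone, with a robust estimate of the spread and with no filter on low values. Acot1, an acyl-CoA thioesterase, had 7.54, 8.04 and 99.8 FPKM in PPA_6h livers, against 69.0, 151 and 90.4 FPKM in PPA_0h livers, and Cyp4a14, a fatty acid omega-hydroxylase, had 103, 130.3 and 1043 FPKM in PPA_6h livers, against 728, 1443 and 1018 FPKM in PPA_0h livers. Both have close copies, both had PPA_6h_5 within the 0 h range, and their calls (adjusted p = 0.0296 and adjusted p = 0.0291) were lost without the same 4 libraries. The calls of Acot1 and Cyp4a14 were also lost in the same other fits as that of Ehhadh, and with a block for the replicate number. In other targets all 6 h libraries lay below the 0 h group. Cpt2, which delivers fatty acids to mitochondrial oxidation, had 46.0, 51.3 and 70.7 FPKM in PPA_6h livers, against 122, 132 and 127 FPKM in PPA_0h livers (log2 change -1.19 ± 0.15, adjusted p = 0.000174). PPA_6h_5 was the highest at 6 h and still below every 0 h library. Aldh3a2, a fatty aldehyde dehydrogenase, fell most among the targets (log2 change -2.46 ± 0.40, adjusted p = 0.000979), and the fatty acid importer Slc27a2 fell as well (-1.12 ± 0.16). In ketone body synthesis 4 of 7 genes fell and 1 rose, with 2 decreases without PPA_0h_5 or PPA_6h_2 and 1 without PPA_6h_1, and no increase without PPA_0h_2 or PPA_6h_5.

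Lipid droplet genes fell in 10 of 23 cases and rose in none. G0s2, the inhibitor of the fat-splitting lipase ATGL (chromosome 1, 193272161 to 193273217), had 58.0, 64.3 and 98.3 FPKM in PPA_6h livers, against 645, 997 and 695 FPKM in PPA_0h livers. All 6 h values were several times below all 0 h values (log2 change -3.40 ± 0.32, adjusted p = 1.66e-05). Fitm1 (-1.77 ± 0.32) and Fitm2 (-0.82 ± 0.17), which bud droplets from the endoplasmic reticulum, and Cideb (-0.83 ± 0.13) fell too. In the peroxisome list 12 of 28 genes fell, among them Cat, catalase (-0.81 ± 0.12), the import receptor Pex5 (-0.72 ± 0.10), the fatty acid carrier Abcd3 (-1.05 ± 0.17) and Hacl1 (-1.57 ± 0.26). In fatty acid synthesis 2 of 19 genes rose, near the share over all rows. They were Srebf1 (1.23 ± 0.25), which encodes its main activator, and Acly (0.76 ± 0.17). Acacb, whose product inhibits fatty acid entry into mitochondria, fell (-1.14 ± 0.21), and the 4 calls of decrease in this list became 1 without PPA_0h_4 and 2 without PPA_6h_1 or PPA_6h_2.

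Cholesterol genes, targets of the sterol sensor SREBP2, rose in 14 of 27 cases and fell in 1 (median 0.80). The increases were 10 to 17 without any 1 PPA library. Sqle, squalene epoxidase, had 34.6, 8.57 and 13.1 FPKM in PPA_6h livers, against 0.695, 1.08 and 1.21 FPKM in PPA_0h livers. PPA_6h_1 was highest and PPA_6h_2 lowest at 6 h, all above the 0 h group (log2 change 3.09 ± 0.54, adjusted p = 0.00144). Msmo1, a sterol demethylation enzyme, had 73.6, 19.9 and 53.8 FPKM in PPA_6h livers, against 5.78, 7.30 and 7.99 FPKM in PPA_0h livers, in the same order (log2 change 2.47 ± 0.47, adjusted p = 0.00232). Cyp51, another sterol demethylation enzyme, rose too (1.89 ± 0.34), and the exception was Tm7sf2 (-0.53 ± 0.12). The list mean on the log2(FPKM + 1) scale was 4.74, 3.74 and 4.27 in the PPA_6h libraries, against 3.26, 3.31 and 3.25 in the PPA_0h libraries, so PPA_6h_2 lay closest to 0 h.

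Bile acid genes fell in 17 of 28 cases, or 10 without PPA_0h_2, and rose in 1, a call lost without any 1 PPA library other than PPA_6h_5 (median -0.57). Cyp8b1, which steers synthesis to cholic acid, had 140.3, 113 and 161 FPKM in PPA_6h livers, against 675, 743 and 656 FPKM in PPA_0h livers, both groups even and far apart (log2 change -2.33 ± 0.14, adjusted p = 3.29e-07). Abcb4, the phospholipid pump of bile (-1.20 ± 0.17), and the side-chain and ring enzymes Amacr (-0.94 ± 0.11) and Hsd3b7 (-0.75 ± 0.12) fell. Among apolipoproteins 2 of 20 rose, or 1 without PPA_0h_4, and 3 fell, or 5 without PPA_6h_5. The counts of 2 and 3 were near the shares over all rows. Apoe had 33032, 29427 and 32485 FPKM in PPA_6h livers, against 42854, 45289 and 45899 FPKM in PPA_0h livers (log2 change -0.50 ± 0.12, adjusted p = 0.00939). With quantile normalization the change of Apoe, the highest row in all of these libraries, was 0.

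Genes of glucose production fell in 9 of 25 cases and rose in 1 (median -0.39). The decreases were 4 without PPA_0h_2 and 5 without PPA_0h_5 or PPA_6h_2. The exception was Foxo3, a fasting and stress factor, with 35.9, 21.8 and 41.7 FPKM in PPA_6h livers, against 5.94, 3.92 and 6.05 FPKM in PPA_0h livers (log2 change 2.41 ± 0.25, adjusted p = 4.15e-05). In glycolysis and hypoxia 7 of 24 genes rose, such as Ndrg1 (1.5 ± 0.16), Pfkfb3, which speeds glycolysis (1.26 ± 0.20), and the hormone Adm (1.10 ± 0.19), whereas Pfkfb1, the liver form of that enzyme, fell (-1.40 ± 0.18). Of 56 respiratory chain subunits 5 were lower and none higher (median -0.11), below the shares over all rows. With libraries scaled to the same sum 11 were lower, and leaving out any 1 PPA library gave 2 or 3. In the citric acid cycle 8 of 21 genes fell, among them Idh2 (-0.58 ± 0.12), and Pdhb rose (0.57 ± 0.10), and 3 to 5 fell without PPA_0h_2, PPA_0h_4, PPA_0h_5, PPA_6h_1 or PPA_6h_2. Glucocorticoid response genes split. Mt1, Mt2 and Lcn2 are among the 7 of 16 that rose, or 4 without PPA_6h_5, while Tsc22d3, GILZ, a direct target of the glucocorticoid receptor, averaged 32.0 ± 7.79 FPKM in PPA_6h livers and 128 ± 25.6 FPKM in PPA_0h livers (log2 change -1.98 ± 0.19, adjusted p = 2.45e-05).

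Of 36 hepatocyte transcription factors 11 fell and 3 rose. Besides Ppara and Nr1i3, Klf15, a fasting-induced factor of amino acid breakdown, averaged 33.2 ± 11 FPKM in PPA_6h livers and 109 ± 15.9 FPKM in PPA_0h livers (log2 change -1.72 ± 0.20, adjusted p = 0.000107), and Esrra fell (-0.71 ± 0.12). The decreases numbered 6 without PPA_0h_4 and 7 without PPA_6h_1, and the increases 1 without PPA_0h_2, PPA_0h_5 or PPA_6h_5. In the circadian list 5 of 19 genes rose, with Nfil3 (1.19 ± 0.15), Nr1d2 (1.18 ± 0.15) and Wee1 (0.93 ± 0.16) among them, and 1 fell, or 2 without PPA_6h_2. The labels do not give the hour of day of either group. Secreted hepatokines rose in 7 and fell in 6 of 28 cases, and the counts were 4 and 2 without PPA_0h_5 or PPA_6h_1 and 4 and 3 without PPA_0h_4. Tsku (1.52 ± 0.23) and Inhba (1.36 ± 0.30), the subunit of activin A, rose, and Igfbp4 fell (-0.45 ± 0.11). Major urinary proteins and sex-linked liver genes, largely close copies, fell in 6 of 25 cases, or 3 without PPA_0h_2, PPA_6h_1 or PPA_6h_2. Autophagy and lysosome genes stayed near the background, with 5 of 30 higher and 3 lower (median -0.03), and 8 fell with libraries scaled to the same sum. Besides Sqstm1, Ctsl (1.15 ± 0.12), Gla (1.26 ± 0.16) and the lysosomal regulator Tfe3 (1.12 ± 0.16) rose.

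Markers fixed for the cell types that bulk liver can hold were measured alongside. Hepatocyte markers stayed near the background, 3 of 17 higher and 3 lower, and their summed level was 78222 to 96236 FPKM in PPA_6h libraries and 88776 to 93700.2 FPKM in PPA_0h libraries, Alb left out. The neutrophil list is a different case. Only 4 of its 13 symbols in the table passed the filter on low values, most of them through their values at 6 h, so that these 4 were called higher is no support for a change of the list. Its sum was 561, 251 and 485 FPKM in the PPA_6h libraries, against 22.2, 29.0 and 75.3 FPKM in the PPA_0h libraries. Nearly all of this sum is Lcn2, which hepatocytes also make. Apart from it, S100a8 had 7.55, 7.28 and 8.14 FPKM in PPA_6h livers, against 0, 1.99 and 0 FPKM in PPA_0h livers (log2 change 2.59 ± 0.49, adjusted p = 0.00221), and S100a9 had 8.24, 7.93 and 12.4 FPKM in PPA_6h livers, against 0, 0.664 and 1.64 FPKM in PPA_0h livers (log2 change 2.66 ± 0.55, adjusted p = 0.00422). These subunits of calprotectin were low everywhere. Of the other neutrophil markers Camp was listed at 0 in all 6 libraries, and none of the 9 untested ones exceeded 0.982 FPKM in any of them. The part of neutrophils in the rise of inflammatory genes was not tested.

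For Kupffer cells, the resident macrophages, 3 of 14 markers rose, or 1 without PPA_6h_2, and 1 fell, or 0 without any of the other 5 PPA libraries, with a sum of 186 to 260 FPKM in PPA_6h and 192 to 293 FPKM in PPA_0h libraries. Cd68, a lysosomal protein of macrophages, rose (1.55 ± 0.32). Of sinusoidal endothelial markers 2 of 16 rose, near the share over all rows, and 1 fell, or 0 without PPA_0h_5 or PPA_6h_5. The increases were those of Lyve1 (1.15 ± 0.21) and Pecam1 (0.74 ± 0.18). Stellate cell markers had 1 of 15 higher, the matrix protein Dcn (0.58 ± 0.14), and cholangiocyte markers 1 of 7, which was Sox9. Lymphocyte markers did not reach the filter and summed to 1.86 to 2.97 FPKM in all 6 libraries. Of monocyte and macrophage markers 1 of 4 rose, or none without PPA_0h_2, PPA_0h_5, PPA_6h_1 or PPA_6h_5. Of erythroid markers 1 of 5 fell, and none of muscle or pancreas was called. Adipocyte markers held 1 decrease, that of Cfd, which had 0.267, 2.46 and 0.74 FPKM in PPA_6h livers, against 44.4, 7.15 and 6.41 FPKM in PPA_0h livers. PPA_0h_2 stood far above the other 0 h libraries, and the call (log2 change -2.83 ± 0.82, adjusted p = 0.0227) was lost without it, without PPA_6h_1 and without PPA_6h_5. The call of Cfd was also lost with no filter on low values and with a robust estimate of the spread.

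The PPA_6h libraries differed among themselves in which responses they showed most. Among genes that rose, PPA_6h_2 was the 6 h library nearest to the 0 h level in 54.0%, PPA_6h_1 in 26.2% and PPA_6h_5 in 19.8%. Among genes that fell, the shares were 42.4% for PPA_6h_2, 24.2% for PPA_6h_1 and 33.4% for PPA_6h_5. The order was not the same in every list. Heat shock genes averaged 6.37, 6.69 and 6.11 in PPA_6h, against 4.30, 4.51 and 4.47 in PPA_0h libraries on the log2(FPKM + 1) scale, so PPA_6h_2 was the highest there. Called genes with the widest spread at 6 h included Prtn3, proteinase 3 of myeloid granules, with 4.81, 15.3 and 1.62 FPKM in PPA_6h livers, against 0.271, 0.615 and 1.01 FPKM in PPA_0h livers (log2 change 1.97 ± 0.50, adjusted p = 0.0121). Saa2, an acute phase protein with near-identical copies, had 751, 1467 and 6044 FPKM in PPA_6h livers, against 249, 160.0 and 501 FPKM in PPA_0h livers. Its call (log2 change 2.79 ± 0.89, adjusted p = 0.0347) was lost without PPA_0h_2, PPA_0h_4, PPA_6h_2 or PPA_6h_5. It was also lost with no filter on low values, with a robust estimate of the spread and with each library weighed by its spread.

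The same contrast in mice on plain water, CTL_6h minus CTL_0h, called 1513 rows higher (15.0%) and 1171 lower (11.6%). Called in both were 986 increases, 65.9% of those of PPA mice and 65.2% of those of plain-water mice, and 693 decreases, 52.5% and 59.2%. Over the 10084 rows other than Apoe the changes correlated at r = 0.811 across genes, which are not independent. The pairs share no library, but they share the fitted spread. List medians were 1.51 in PPA and 1.25 in plain-water mice for heat shock, 1.69 and 1.48 for the integrated stress response, 2.08 and 3.08 for AP-1, -1.13 and -1.16 for pericentral genes and -0.86 and -0.38 for PPAR-alpha targets. A call in one kind of mouse alone is no evidence of a difference, so the difference of the changes was tested itself.

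**Figure D5:**
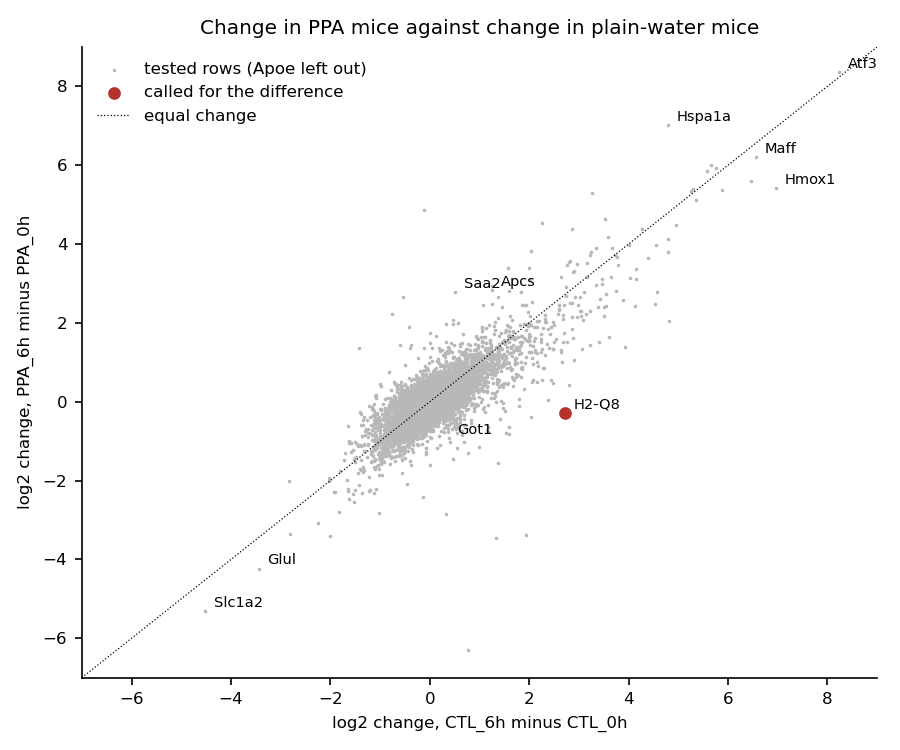
Change in PPA mice (PPA_6h minus PPA_0h, vertical axis) against change in mice on plain water (CTL_6h minus CTL_0h, horizontal axis), log2 of FPKM + 1, for each tested row except Apoe. The dotted line marks equal change, and the red point, H2-Q8, is the 1 row shown that was called for the difference.

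Of 10085 rows 2 (0.0198%) were called for a different change in PPA mice, and 918 had an unadjusted p under 0.05. The count was 11 without PPA_6h_5, 41 without CTL_6h_3 and 472 with sample quality weights, which let limma weigh each library by its spread. The first was Apoe, with 33032, 29427 and 32485 FPKM in PPA_6h livers, against 42854, 45289 and 45899 FPKM in PPA_0h livers, but listed at 0 in all CTL_6h libraries, against 52465, 44264 and 46359 FPKM in CTL_0h libraries. Since Alb too is listed at 0 in every 6 h library, such zeros in abundant genes are taken as failed estimates and not as levels. The second was H2-Q8, a class Ib histocompatibility gene in a family of close copies, with 9.57, 6.99 and 4.22 FPKM in PPA_6h livers, against 9.81, 7.04 and 7.94 FPKM in PPA_0h livers. In mice on plain water it had 3.89, 9.31 and 4.72 FPKM in CTL_6h livers, against 0.00156, 0.00154 and 0.0016 FPKM in CTL_0h livers (difference of the changes -2.99 ± 0.39, adjusted p = 0.0269). For H2-Q8 only the CTL_0h libraries stood apart, with values near 0. At 0 h its close copy H2-Q6 ran the other way. It had 5.75, 9.54 and 10.1 FPKM in CTL_0h livers, against 0.00521, 0.000688 and 0.00256 FPKM in PPA_0h livers. The near-zero values of either gene may thus not be levels, and how reads were split between these copies was not tested. For Hmox1 the difference of the changes was -1.56 ± 0.38, adjusted p = 0.326, for Apcs 1.57 ± 0.26, adjusted p = 0.0937, for Hspa1a 2.23 ± 0.89, adjusted p = 0.514 and for Glul -0.79 ± 0.28, adjusted p = 0.479, none past the threshold.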

How the data were processed

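The authors deposited 1 table of FPKM values, 24340 rows by 12 libraries, named by gene symbol. Per the labels' protocols, Trizol served to extract RNA, a NEBNext kit to isolate its poly(A) fraction and a ThruPLEX kit to make the libraries. Per the submitters' processing notes HISAT2 2.1.0, SAMtools 0.1.18-r580, Cufflinks and Cuffdiff 2.1.1 and the mm10 genome build were used, and their order and settings are not stated there. FPKM keeps no read counts, so no count model was run. In each library 70.6% to 78.2% of the low values of transcripts of 3000 bases or more lay within 0.1 of a whole number of fragments, where the tolerance alone gives 20%, and depth was estimated from their spacing only.

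From the deposited FPKM, log2(FPKM + 1) was fitted with limma 3.58.1 (R 4.3.3) with a mean for each of the 4 groups over all 12 libraries and a trended empirical Bayes estimate of the spread, and p-values were adjusted by the Benjamini-Hochberg method over 10085 rows. Contrasts were PPA_6h minus PPA_0h, CTL_6h minus CTL_0h and the difference of these. Rows needed 1 FPKM in 3 libraries, and Alb was left out. The fit was tested on simulated data. The PPA libraries, the 56 lists of function, the 12 marker lists and the rules below were chosen with earlier results of these data known.

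Genes named are, in the main, the 12 largest increases and decreases with no overlap and 5 FPKM or more in the higher group, up to 4 members of each list and direction by p, fixed genes of APAP handling, those called for the difference of changes, and the 8 called genes with the widest range at 6 h, and some genes that meet these rules are not reported here. Of 1498 list symbols 1490 were found in the table. Promoters came from RefSeq (GRCm38.p6), which matched 7738 of 10084 tested symbols. Alternatives were other pseudocounts, filters, scalings, weights, a robust estimate of the spread, a fit of the 6 PPA libraries alone, a block for the replicate number and leaving out each library.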

Additional observations from a re-analysis of the deposited data

Results flagged for a closer look

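Apoe and H2-Q8 passed the test of a different change in PPA mice and mice on plain water. Got1 and Tat did not pass it. They are given because all PPA_6h values lay below all PPA_0h values while all CTL_6h values lay above all CTL_0h values. The number of rows with this double pattern is not given here. Its PPA part alone was common, with 2320 of 10085 rows lower at 6 h without overlap. The pattern is therefore by itself no evidence that the change of Got1 or Tat differed with PPA. The plain-water change was not called for Got1 (adjusted p = 0.14) or Tat (adjusted p = 0.0708). Apoe differed by 15.04 (log2 scale, PPA change minus plain-water change) because it is listed at 0 in all CTL_6h libraries, which is taken as a failed estimate. H2-Q8 differed by -2.99, with values near 0 in the CTL_0h libraries, while its close copy H2-Q6 was near 0 in the PPA_0h libraries.

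Got1, an aspartate aminotransferase, had 222, 125 and 186 FPKM in PPA_6h livers, against 339.7, 290.3 and 349.8 FPKM in PPA_0h livers, and 278, 252 and 281 FPKM in CTL_6h livers, against 206, 180.4 and 236 FPKM in CTL_0h livers. Its change was -0.91 ± 0.18 in PPA mice and 0.39 ± 0.18 in mice on plain water, and the test of the difference (-1.30) was not past the threshold (adjusted p = 0.221). Tat, tyrosine aminotransferase, had 854, 596 and 829 FPKM in PPA_6h livers, against 1240.2, 933 and 1254 FPKM in PPA_0h livers, and 1105, 1336 and 866 FPKM in CTL_6h livers, against 709, 733 and 857 FPKM in CTL_0h livers. Its change of -0.59 ± 0.19 in PPA mice was called, but not without PPA_0h_2, PPA_0h_5 or PPA_6h_2. The call was also lost with no filter on low values, with quantile normalization and with a replicate block. The difference of its changes, -1.10, was not past the threshold either (adjusted p = 0.326).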

How the results depend on the processing

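Of 307 named genes 299 were called, and 232 of these were called under every alternative that tested them, while none of the called genes turned its direction. Most named genes were picked for being called, many by the smallest p. These counts therefore do not describe all 2818 called rows. Not every alternative tested all 307. At 5 FPKM or more 285 were tested, and 303 with each library's trend with transcript length removed. Among genes not called, the log2 change of Keap1 was -0.00024 with libraries scaled to the same sum and -6e-05 to 0.13 when 1 PPA library was left out, and the log2 change of Cela1 was -0.23 to 0.02. The count of genes higher at 6 h was 1091 to 1338 without 1 PPA library, and that of lower genes 894 to 1104. Sample quality weights gave 2096 higher and 1988 lower genes, and a fit of the 6 PPA libraries alone gave 1589 and 1465. With no filter the counts were 1410 and 1192, and at 5 FPKM or more 1128 and 1127. Calls that were higher made up 53.1% of all calls, 43.1% with libraries scaled to the same sum and 46.1% with quantile normalization.

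The count of genes whose change differed between PPA and plain-water mice was 4 at 5 FPKM or more, 1 with quantile normalization, 1 without short RNA genes and Apoe, 472 with sample quality weights and 1 with each library's trend with transcript length removed, an alternative chosen after seeing the data. Leaving out 1 library gave 1 to 41. The cause was not tested.

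PPA_6h and PPA_0h libraries share only the numbers 2 and 5, and same-numbered libraries deviated together at correlations of 0.091 and 0.064 across genes, against -0.077 to 0.025 for other pairs, so the numbers were not taken as pairs. With a replicate block 1062 genes were higher, 884 were lower and 1 differed between PPA and plain-water mice. Low values are limited by the lower depth at 0 h.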
